A study of Homo sapiens and Mus musculus with 56 samples.

Results

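The data described here are the 6 human arrays of the glioblastoma line U87M2, 3 from cells given V-4084 and 3 from cells given vehicle. They were taken by their titles from 28 human arrays, within a series of 56 arrays in all. The labels describe V-4084 as a small molecule that selectively inhibits the MET kinase. U87M2 cells labelled V-4084 received it for 7 days. The labels give 0.01 M both as the dose and as the stock in DMSO, so the concentration on the cells is not settled. Vehicle cells received DMSO for 7 days. The remaining 22 human arrays hold the glioblastoma lines SF295, U118, DBM2 and U251M2 under the same treatments, and the titles, cell line fields and source names disagree between DBM2 and SF295 for the 3 V-4084 arrays of DBM2. Of those 3, repeats 1 and 3 correlated most closely with DBM2 vehicle arrays (r = 0.992 and 0.994). Repeat 2 did so with another V-4084 array titled DBM2 (r = 0.951). Mouse arrays, 28 in all, were labelled as tumours of the lines named above under the skin of nude mice given V-4084 at 30 mg per kg or vehicle, also for 7 days. Nothing in the labels marks the 3 repeats per group as cultures of their own, so every p-value below describes the spread between arrays.

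MET is a receptor tyrosine kinase of the cell surface, and hepatocyte growth factor (HGF) is its ligand. The active receptor recruits the docking protein GAB1 and adaptors such as GRB2, from which the RAS-ERK and PI3K-AKT branches run. ERK raises transcription of AP-1 and EGR factors and of its own inhibitors, while AKT keeps FOXO transcription factors out of the nucleus. In glioblastoma the pathway is known for growth, invasion and the making of angiogenic factors, and U87 cells are a common model of cells that make HGF and MET together. No source used here says how U87M2 relates to U87.

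Values are log2 probe-set levels, and every difference is V-4084 minus vehicle on that scale with limma's standard error (SE, n = 3 and 3), so a difference of 1 is a doubling. A gene was called when its p-value, adjusted over 18417 genes by the Benjamini-Hochberg method, was below 0.05. Medians over all probe sets ran from 6.70 to 6.73 on V-4084 arrays and from 6.63 to 6.68 on vehicle arrays, and SDs from 2.03 to 2.05 on V-4084 arrays and from 2.08 to 2.10 on vehicle arrays. Arrays correlated across genes at r = 0.991 to 0.995 within V-4084, 0.989 to 0.992 within vehicle and 0.967 to 0.979 between the groups. The arrays carry no flag for background. The 95th percentile of the group means of 341 olfactory receptor genes, which glioblastoma cells are not known to use, served as a floor for dim genes. It lay at 6.39 for V-4084 and 6.31 for vehicle, and the medians of those genes were 4.98 for V-4084 and 4.87 for vehicle, so dim genes lay slightly higher on V-4084 arrays. Of the 341 genes, 3 were called. Where a group mean lay at or below the floor, the fitted difference is no bound on the change. In these bulk samples fewer cells of a kind and less RNA per cell cannot be told apart.

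The labelled cell type was checked on 12 glial and neural stem markers, of which 5 lay above the floor. VIM, an intermediate filament of mesenchymal and glial cells, had 11.72, 11.75 and 11.71 in V-4084 arrays, against 12.17, 12.09 and 12.05 in vehicle arrays. NES, a filament of neural stem cells, had 9.16, 9.06 and 8.99 in V-4084 arrays, against 9.21, 8.77 and 9.39 in vehicle arrays. SOX2 and OLIG2, transcription factors that define neural stem and oligodendrocyte lineages, and S100B, a calcium-binding protein of astrocytes, were at or below the floor on all 6 arrays. GFAP, the astrocyte filament, had 6.79, 6.74 and 6.51 in V-4084 arrays, against 6.50, 6.65 and 6.55 in vehicle arrays, close to the floor. Thus 2 filament genes were bright, while the lineage factors were not above the floor. Of the 12 genes MAP2, a microtubule protein of neurons, was the 1 called, 8.76, 8.88 and 9.02 in V-4084 arrays, against 8.08, 8.04 and 8.28 in vehicle arrays.

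Markers of other cell types were read on the same arrays. Of 15 macrophage markers, 5 had a group mean above the floor and 1 was called, CD68, a lysosomal protein, which fell by 0.78 (SE 0.11). PTPRC, the pan-leukocyte surface phosphatase, was at 4.55 with V-4084 and 4.49 with vehicle. None of 15 skeletal muscle, 8 adipocyte or 4 erythroid markers was called. Of 10 endothelial markers 1 rose and 2 fell (1 without vehicle repeat 3), and of 10 pericyte and smooth muscle markers 3 rose and 1 fell. Of 8 neutrophil, 10 T and natural killer cell and 6 keratinocyte markers 1 of each list was called higher, and none of these 3 calls was kept without vehicle repeat 2, V-4084 repeat 1 or V-4084 repeat 2. Of 13 fibroblast markers 11 lay above the floor, 7 were called higher and none lower. The 7 included the matrix genes DCN, COL3A1 and COL1A1 and the receptor gene PDGFRA. The 6 members not called differed by 0.06 to 0.31. The mean of the 13 markers was 9.04, 9.11 and 9.04 in V-4084 arrays, against 8.27, 8.50 and 8.16 in vehicle arrays, so the groups did not overlap. On the mouse arrays of U87M2 tumours with the same repeat numbers the same genes averaged 8.71, 9.19 and 9.05 with V-4084, against 8.52, 9.07 and 8.17 with vehicle, and those groups overlapped. In both groups and on both platforms repeat 2 had the highest mean, and in both vehicle groups repeat 3 had the lowest. Muscle markers averaged 6.13, 6.10 and 5.99 with V-4084 and 6.13, 6.18 and 5.95 with vehicle on human arrays, against 6.47, 6.44 and 6.62 with V-4084 and 7.28, 7.61 and 6.63 with vehicle on mouse arrays. The part of RNA from mouse cells in the levels of the human arrays was not tested.

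**Figure D1:**
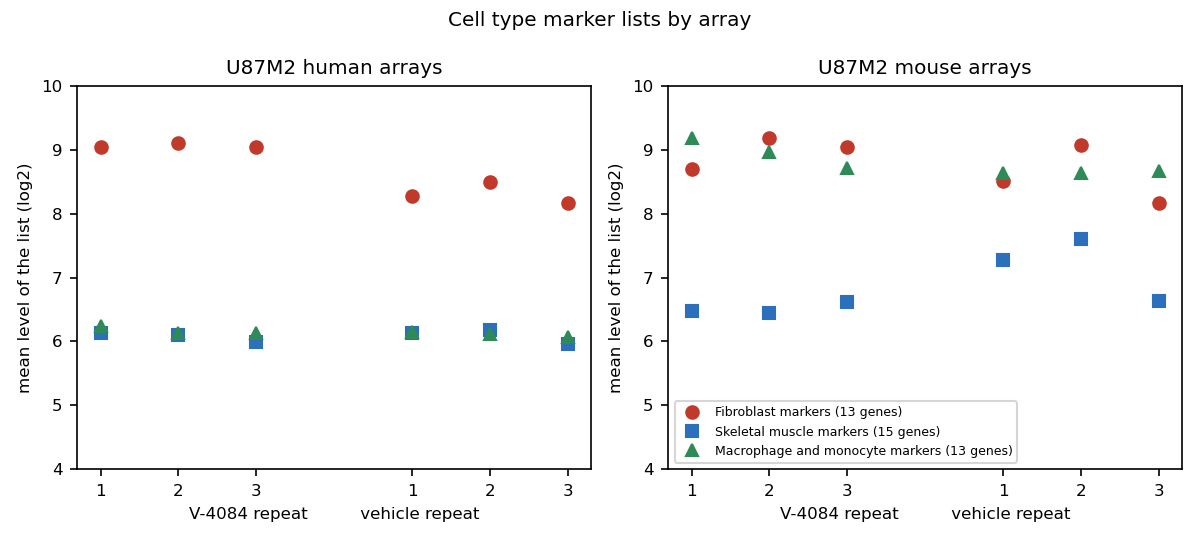
Mean log2 level of 3 cell type marker lists (vertical axis) on each U87M2 array, human arrays on the left and mouse arrays on the right, V-4084 repeats before vehicle repeats. Each point is 1 array. On human arrays the fibroblast list lies at 9.04 to 9.11 with V-4084 and at 8.16 to 8.50 with vehicle, while the human muscle means lie at 5.95 to 6.18. Of the 15 muscle genes 7 have a group mean above the floor for dim genes on human arrays.

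V-4084 was followed by broad change. Of 18417 genes 2760 were called (15%), 989 of them higher (5.37%) and 1771 lower (9.62%), and 360 called genes (1.95%) differed at least 2-fold, 157 higher (0.852%) and 203 lower (1.1%). The median difference over all genes was 0.02. For 7284 genes (39.6%) the ranges of V-4084 and vehicle arrays were apart, 3308 higher (18%) and 3976 lower (21.6%). With quantile normalization 47% of calls were higher, against 35.8% as deposited. The balance of directions thus moved with the scaling. Without vehicle repeat 3, 1750 genes were called, 1054 of them lower, without V-4084 repeat 1 the lower calls numbered 1117, and without the 3 arrays of other lines with a narrow range of values (DBM2 V-4084 repeat 2, U251M2 V-4084 repeat 1 and SF295 V-4084 repeat 2) 4816 genes were called.

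Among the largest fitted increases, matrix and transport genes stood beside a cytochrome. OGN, ASPN and EPYC, small leucine-rich proteoglycans of connective tissue, had vehicle levels at or below the floor. OGN had 7.62, 7.79 and 7.94 in V-4084 arrays, against 5.01, 5.22 and 4.73 in vehicle arrays (difference 2.79, SE 0.19, adjusted p = 5.54e-11). ASPN had 7.52, 7.94 and 8.04 in V-4084 arrays, against 4.81, 6.09 and 4.48 in vehicle arrays (difference 2.71, SE 0.27, adjusted p = 5.31e-08). Its vehicle arrays were the most spread of the 12 genes. ABCA6 and ABCA8, transporters of the lipid-carrying ABCA family, also came up from below the floor, with ABCA6 at 7.93, 7.94 and 8.09 in V-4084 arrays, against 5.37, 5.18 and 5.59 in vehicle arrays (difference 2.60, SE 0.15, adjusted p = 3.91e-12). CYP1B1, a cytochrome P450 that oxidises steroids and aromatic compounds, lay above the floor in both groups, 9.35, 9.43 and 9.32 in V-4084 arrays, against 6.52, 7.01 and 6.61 in vehicle arrays (difference 2.66, SE 0.15, adjusted p = 3.91e-12). SPARCL1, a secreted matrix protein of the SPARC family, had 9.44, 9.30 and 9.49 in V-4084 arrays, against 6.98, 7.10 and 7.22 in vehicle arrays, and OLFML2B, a secreted olfactomedin protein, 10.87, 11.10 and 11.15 in V-4084 arrays, against 8.79, 9.03 and 8.67 in vehicle arrays. The other members of the 12 were SCN7A, a sodium channel, FRZB, a secreted Wnt antagonist, UTS2B, a peptide hormone gene, and PDE5A, the phosphodiesterase of cyclic GMP. For the 9 of 12 with a dim vehicle group, the distance from the V-4084 mean to the floor gives a lower bound ("at least" below), from at least 1.67-fold for SCN7A to at least 4.34-fold for PDE5A.

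The largest fitted decrease was in SULT1B1, a sulfotransferase of thyroid hormones and phenols, 4.59, 4.40 and 4.39 in V-4084 arrays, against 7.76, 7.50 and 7.81 in vehicle arrays (difference -3.24, SE 0.25, adjusted p = 4.07e-10). Its V-4084 level was below the floor, so the fall was at least 2.46-fold and its place in the order is not settled. EPHA2, an ephrin receptor kinase linked to glioma invasion, had 6.45, 6.36 and 6.52 in V-4084 arrays, against 9.07, 8.80 and 8.86 in vehicle arrays (difference -2.46, SE 0.18, adjusted p = 2.08e-10). STC1, a secreted glycoprotein hormone, had 8.01, 7.93 and 7.79 in V-4084 arrays, against 10.56, 10.11 and 10.40 in vehicle arrays. In all 3 genes every V-4084 array lay below every vehicle array, by the rule that chose the largest decreases. HMGA1, an architectural chromatin protein of proliferating cells, had 8.89, 8.75 and 8.52 in V-4084 arrays, against 11.46, 10.76 and 10.99 in vehicle arrays. ADGRG1, an adhesion receptor coupled to G proteins, had 9.22, 8.81 and 8.68 in V-4084 arrays, against 11.36, 10.96 and 11.01 in vehicle arrays. AHNAK2, a large scaffold protein, fell by 2.15 (SE 0.16), TFPI2, a secreted protease inhibitor, fell by 2.10 (SE 0.21), and SERPINB7, an intracellular serpin, fell by 2.17 (SE 0.18), at least 2.79-fold. PTPN22, a phosphatase best known in lymphocytes, fell by 2.15 (SE 0.18), at least 2.74-fold, and WNT7B, EREG and FOSL1, which also belong here, are described with their pathways.

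**Figure D2:**
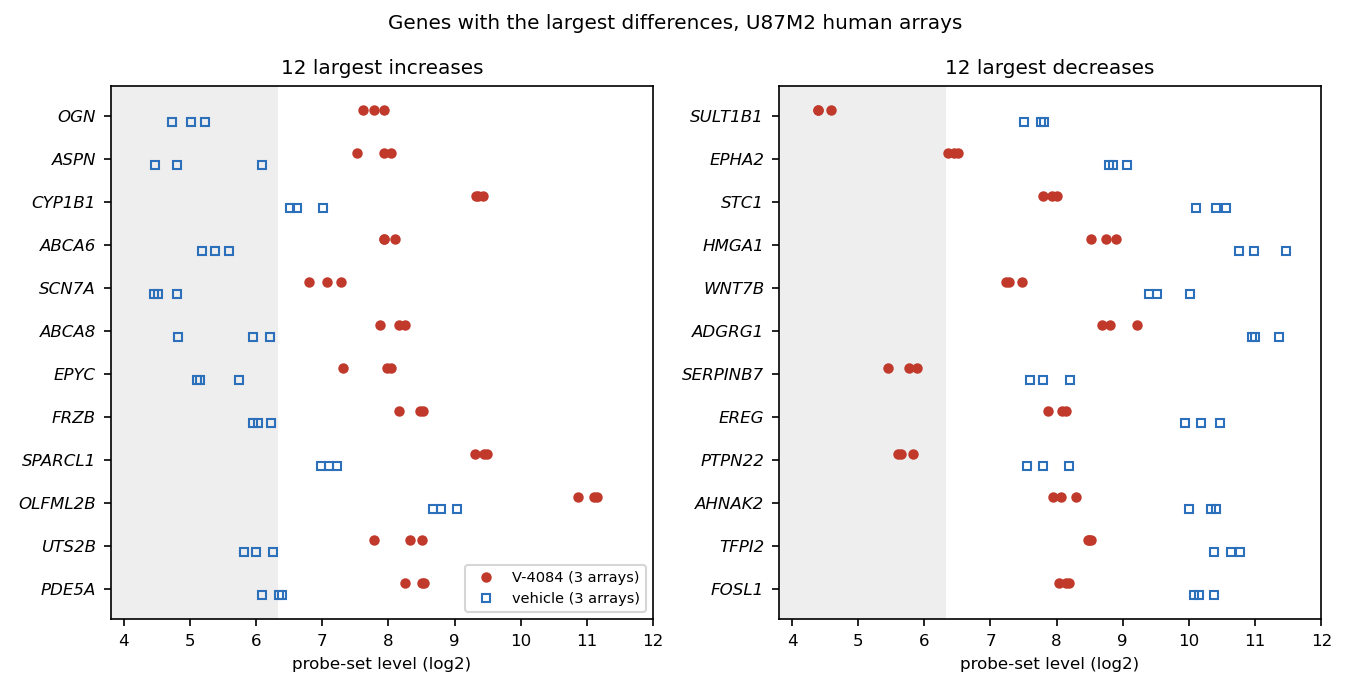
Log2 probe-set level (horizontal axis) of the 12 genes with the largest increases (left) and the 12 with the largest decreases (right) among called genes whose groups did not overlap. Filled points are the 3 V-4084 arrays, open squares the 3 vehicle arrays, and grey marks levels under the vehicle floor for dim genes of 6.31. In 9 of the 12 increases the vehicle mean lies in the grey range, and in 3 of the 12 decreases the V-4084 mean lies at or below the V-4084 floor of 6.39.

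The lists below were described by how many measured members were called, beside 5.37% higher and 9.62% lower over all genes. A share near those figures is no result about a list. The ranges of V-4084 and vehicle arrays were apart for 39.6% of all genes. Named list genes were partly chosen for large calls, so separated arrays in them are a description and no separate result. Counts that moved by over 1.5 times when 1 array was left out are given with those arrays.

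**Figure D3:**
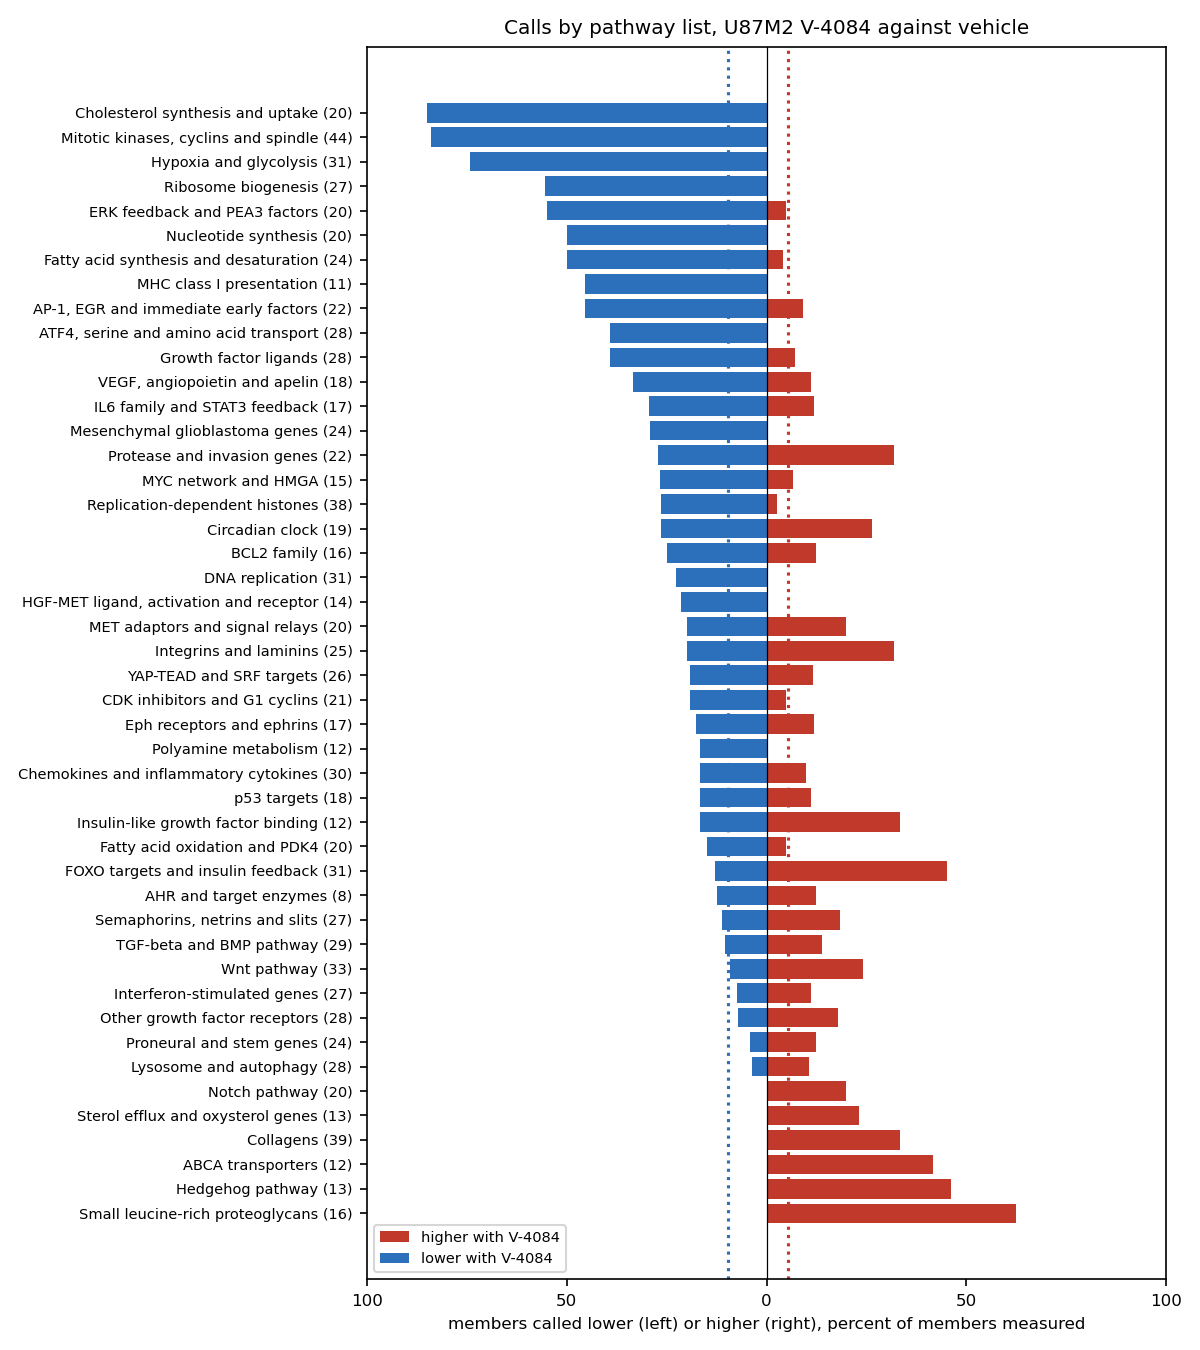
Members called lower (bars to the left) and higher (bars to the right) with V-4084, as a percent of the members measured, for 46 pathway lists, with the number measured in parentheses. Dotted lines mark the shares over all genes, 9.62% lower and 5.37% higher. Cholesterol synthesis, mitotic and glycolysis genes have the longest bars to the left, and small leucine-rich proteoglycans, Hedgehog and FOXO genes the longest to the right.

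MET fell, and its ligand HGF was not called. MET had 9.52, 9.52 and 9.57 in V-4084 arrays, against 10.45, 10.70 and 10.65 in vehicle arrays, with every V-4084 array below every vehicle array (difference -1.06, SE 0.16, adjusted p = 3.13e-05). HGF had 11.40, 11.40 and 11.49 in V-4084 arrays, against 11.50, 11.39 and 11.48 in vehicle arrays, and its difference of -0.03 (SE 0.12) had a 95% interval from -0.28 to 0.22. Of 14 ligand, activation and receptor genes 3 fell and none rose. The others that fell were CD44, a cell surface glycoprotein that can act as a MET co-receptor, 8.97, 8.97 and 8.94 in V-4084 arrays, against 9.85, 9.81 and 9.85 in vehicle arrays, and PLAU, the urokinase protease that can activate HGF, 8.05, 8.30 and 8.24 in V-4084 arrays, against 9.003, 8.94 and 8.77 in vehicle arrays. MST1R, the MET-related receptor RON, lay below the floor.

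Downstream relays went both ways, with 4 of 20 members higher and 4 lower. GAB1, the main docking protein of MET, had 9.04, 9.03 and 9.15 in V-4084 arrays, against 8.15, 8.28 and 8.30 in vehicle arrays (difference 0.83, SE 0.15, adjusted p = 0.000214). CBLB, a ubiquitin ligase of receptor kinases, rose by 0.80 (SE 0.15) and GAB2, a related docking protein, by 0.60 (SE 0.13). On the other side CBL, the ligase that ubiquitinates active MET, had 8.31, 8.36 and 8.45 in V-4084 arrays, against 9.03, 8.76 and 9.06 in vehicle arrays (difference -0.58, SE 0.11, adjusted p = 0.000636). SRC, a cytoplasmic kinase, fell by 0.59 (SE 0.13). With quantile normalization 2 of the 20 were lower.

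Feedback genes of the ERK branch were lower. Of 20 feedback genes and PEA3 factors 11 fell and 1 rose, with a list median of -0.43 against 0.02 over all genes. DUSP6, the phosphatase that inactivates ERK in the cytoplasm, had 6.27, 6.08 and 6.43 in V-4084 arrays, against 7.67, 7.21 and 7.85 in vehicle arrays (difference -1.31, SE 0.17, adjusted p = 2.3e-06, at least 2.27-fold with V-4084 under the floor). SPRY2, a Sprouty inhibitor that ERK signalling induces, had 6.15, 6.45 and 6.66 in V-4084 arrays, against 8.18, 7.55 and 8.23 in vehicle arrays. SPRY4, a relative, had 7.28, 7.41 and 7.20 in V-4084 arrays, against 8.93, 8.33 and 8.58 in vehicle arrays. No V-4084 array reached a vehicle array in these 3 genes, a separation that 21.6% of all genes also showed. IER3 and PHLDA1, early response genes, fell, at -1.15 (SE 0.16) and -1.04 (SE 0.14), ETV5, a PEA3 transcription factor, fell by 1.15 (SE 0.23), and DUSP5, a nuclear ERK phosphatase, fell by 0.77 (SE 0.17). The group was not uniform. SPRY1 rose, 7.81, 7.85 and 7.64 in V-4084 arrays, against 7.16, 7.12 and 7.21 in vehicle arrays (difference 0.61, SE 0.14, adjusted p = 0.00315), as the single member called higher.

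Among 22 AP-1, EGR and immediate early factors 10 fell and 2 rose. FOSL1, the FOS-family protein FRA1, had 8.19, 8.14 and 8.03 in V-4084 arrays, against 10.37, 10.07 and 10.15 in vehicle arrays (difference -2.08, SE 0.12, adjusted p = 3.91e-12), the smallest SE of the 12 largest decreases. EGR1, a zinc finger factor induced by ERK, had 7.66, 7.38 and 7.41 in V-4084 arrays, against 9.59, 8.96 and 9.30 in vehicle arrays. MYC, the growth-promoting transcription factor, had 6.21, 6.40 and 6.24 in V-4084 arrays, against 7.60, 7.34 and 7.37 in vehicle arrays (difference -1.16, SE 0.13, adjusted p = 3.95e-07), with a V-4084 mean under the floor, so at least 2.07-fold lower. IER2 fell by 0.84 (SE 0.17) and JUN, a partner of the FOS proteins, fell by 0.62 (SE 0.13), while FOSL2 differed by -0.24 and JUND by 0.22 without a call. NR4A3, an orphan nuclear receptor that growth factors often induce early, was called higher with both group means under the floor, 6.24, 6.44 and 6.37 in V-4084 arrays, against 5.44, 5.57 and 5.36 in vehicle arrays. The other gene called higher, NR4A1, kept its call without vehicle repeat 3 and lost it without any other array, which left 1 higher call.

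FOXO targets went the other way. Of 31 FOXO targets and insulin feedback genes 14 rose and 4 fell, with a median of 0.34. BCL2L11, which encodes the cell death protein BIM, had 9.10, 8.97 and 9.16 in V-4084 arrays, against 7.13, 7.23 and 7.20 in vehicle arrays (difference 1.89, SE 0.16, adjusted p = 4.78e-09). SESN3, a stress protein that restrains mTORC1, had 9.14, 9.20 and 9.40 in V-4084 arrays, against 7.21, 7.52 and 7.46 in vehicle arrays. PIK3IP1, an inhibitor of PI3K, had 7.19, 7.33 and 7.24 in V-4084 arrays, against 6.18, 5.96 and 6.26 in vehicle arrays, at least 1.92-fold higher. In all 3 genes the groups stood clear of each other, as they did upward in 18% of all genes. IRS2, the insulin receptor substrate that FOXO factors induce, rose by 1.04 (SE 0.13), FBXO32, a ubiquitin ligase of atrophy, by 1.10 (SE 0.20), and KLHL24, a substrate adaptor, by 1.07 (SE 0.18). The FOXO genes themselves were not called, with FOXO1 at 0.08 and FOXO3 at -0.10. Among members that fell was GADD45A, a stress response gene, 6.37, 6.48 and 6.61 in V-4084 arrays, against 7.53, 7.36 and 7.63 in vehicle arrays. TXNIP, an inhibitor of thioredoxin and glucose uptake, had 10.02, 9.87 and 10.08 in V-4084 arrays, against 10.69, 10.70 and 11.07 in vehicle arrays. IRS1, another receptor substrate, fell by 0.62 (SE 0.14).

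Genes of the BCL2 family showed both signs. Of 16 members 2 rose and 4 fell, and without vehicle repeat 3 the number that fell was 2. Beside BCL2L11, BMF, another death-promoting member, rose by 0.58 (SE 0.13), at least 1.11-fold. MCL1, a survival protein with a short life, had 8.74, 8.67 and 8.89 in V-4084 arrays, against 9.88, 9.97 and 10.22 in vehicle arrays (difference -1.25, SE 0.12, adjusted p = 5.3e-08). PMAIP1, which encodes the MCL1-binding death protein NOXA, had 6.76, 6.76 and 7.20 in V-4084 arrays, against 8.23, 7.80 and 8.28 in vehicle arrays. Thus a survival gene and a death gene both fell, and 2 death genes rose. BCL2, a survival protein, and BBC3, which encodes the death protein PUMA, were not called, at 0.29 and 0.21.

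The promoter of BCL2L11 is shown for its FOXO-type motif. The motif GTAAACA was searched on both strands of 300-base windows from 250 bases before to 50 after the start of each gene (RefSeq, GRCh38.p14, first window listed for each gene), and the motifs here were chosen with the results known. It was found in 2 of 13 FOXO-list genes that rose and have a window, in 2 of 13 others and in 3.41% of 27305 windows. The window of BCL2L11 lies at chr2:111120664-111120963 on the + strand, 5′ to 3′, with the match in capitals. In this and the later windows capitals can hold the reverse complement of the letters named, and a match is a description, not a shown binding site.
BCL2L11: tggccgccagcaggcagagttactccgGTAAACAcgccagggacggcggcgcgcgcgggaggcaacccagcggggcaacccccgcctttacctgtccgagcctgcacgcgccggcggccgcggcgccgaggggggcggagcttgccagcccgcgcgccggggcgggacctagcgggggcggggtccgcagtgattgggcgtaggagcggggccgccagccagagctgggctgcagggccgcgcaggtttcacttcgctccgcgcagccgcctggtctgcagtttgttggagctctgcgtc

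**Figure D4:**
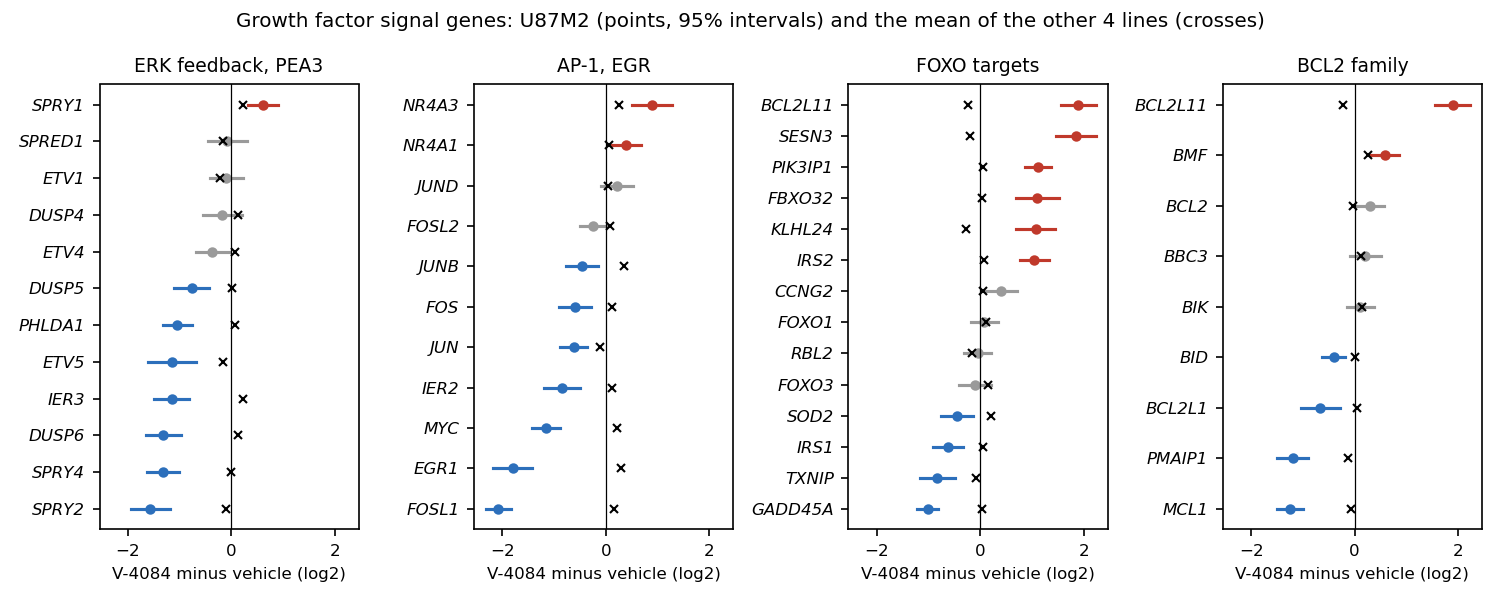
V-4084 minus vehicle (log2, horizontal axis) in U87M2 for named ERK feedback, AP-1, FOXO and BCL2 family genes, with points for the fitted difference, lines for its 95% interval and crosses for the mean difference of the other 4 lines. Red marks genes called higher, blue called lower and grey not called. SPRY2 lies at -1.57 and FOSL1 at -2.08, and BCL2L11 lies at 1.89, while their crosses lie much nearer to 0.

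Secreted growth factors fell more often than they rose, 11 against 2 of 28. Besides STC1, the epidermal growth factor receptor ligand EREG had 8.08, 7.87 and 8.14 in V-4084 arrays, against 10.18, 9.94 and 10.46 in vehicle arrays (difference -2.16, SE 0.16, adjusted p = 2.99e-10). VEGFA, the main angiogenic factor, had 9.40, 9.33 and 9.35 in V-4084 arrays, against 10.55, 10.99 and 10.92 in vehicle arrays. FGF5, a fibroblast growth factor, had 8.17, 8.02 and 8.14 in V-4084 arrays, against 9.18, 9.06 and 9.14 in vehicle arrays. In each of these the groups did not overlap, for EREG by the rule that chose the largest decreases. Of all genes 21.6% were lower without overlap. EGF was called higher with both group means under the floor, 6.26, 6.35 and 6.49 in V-4084 arrays, against 5.78, 6.01 and 5.90 in vehicle arrays. TGFA, another ligand of the EGF receptor, was not called, at -0.24. Leaving out any 1 array except vehicle repeat 2 left 1 gene called higher.

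Other growth factor receptors went both ways. Of 28 members 5 rose and 2 fell, and without vehicle repeat 3 the number that fell was 1. AXL, a receptor linked to invasion, had 9.44, 9.39 and 9.24 in V-4084 arrays, against 10.61, 10.57 and 10.37 in vehicle arrays (difference -1.16, SE 0.13, adjusted p = 2.47e-07). PDGFRA, the platelet-derived growth factor receptor of glial precursors, had 7.70, 7.66 and 7.85 in V-4084 arrays, against 6.32, 6.31 and 6.67 in vehicle arrays (difference 1.30, SE 0.16, adjusted p = 1.22e-06). ROR1, a Wnt-binding receptor, had 8.65, 8.58 and 8.72 in V-4084 arrays, against 7.44, 7.08 and 7.62 in vehicle arrays. The vehicle level of PDGFRA was close to the floor. IGF1R rose by 0.66 (SE 0.16) and PDGFRB, already among the bright genes, by 0.55 (SE 0.13). EGFR and ERBB2, kinases of the epidermal family, were not called, at 0.02 and 0.05. In the Eph family 2 of 17 rose and 3 fell. EFNB2, an ephrin ligand, had 8.45, 8.53 and 8.67 in V-4084 arrays, against 9.47, 9.58 and 9.67 in vehicle arrays, and EPHA5, an Eph receptor of neurons, had 6.95, 7.02 and 7.19 in V-4084 arrays, against 5.66, 6.78 and 5.84 in vehicle arrays, at least 1.67-fold higher. Its vehicle repeat 2 lay closest to the V-4084 arrays.

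Genes of invasion did not move as 1 block: of 22 proteases, inhibitors and receptors 7 rose and 6 fell. PLAUR, the urokinase receptor, had 8.14, 8.15 and 8.24 in V-4084 arrays, against 9.53, 9.36 and 9.65 in vehicle arrays (difference -1.34, SE 0.15, adjusted p = 3.46e-07). SERPINE2, a protease inhibitor called nexin-1, had 8.78, 8.32 and 8.24 in V-4084 arrays, against 9.79, 9.36 and 10.05 in vehicle arrays. ADAM8, a surface metalloprotease, fell by 0.97 (SE 0.14). Thus the urokinase and its receptor fell together. In contrast TIMP2, a tissue inhibitor of metalloproteases, rose, 11.43, 11.47 and 11.55 in V-4084 arrays, against 10.84, 10.76 and 10.72 in vehicle arrays. TIMP3, a matrix-bound inhibitor of the same family, rose too, 9.27, 9.29 and 9.28 in V-4084 arrays, against 8.56, 8.55 and 8.25 in vehicle arrays. ADAM12, a relative of ADAM8, rose by 0.75 (SE 0.16).

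Adhesion genes went both ways. Of 25 integrins and laminins 8 rose and 5 fell, with 4 higher without vehicle repeat 1 or 3 and 5 without any 1 V-4084 repeat. ITGA3, the laminin-binding integrin alpha 3, had 10.25, 10.05 and 9.999 in V-4084 arrays, against 11.77, 11.36 and 11.51 in vehicle arrays (difference -1.45, SE 0.14, adjusted p = 3.43e-08). LAMB3, a chain of its epithelial laminin ligand, had 7.84, 7.68 and 7.75 in V-4084 arrays, against 9.10, 9.01 and 8.89 in vehicle arrays. ITGA5, the fibronectin receptor chain, had 9.86, 9.99 and 9.93 in V-4084 arrays, against 10.93, 10.81 and 10.72 in vehicle arrays. Each of these 3 had every V-4084 array below every vehicle array, as had 21.6% of all genes. LAMA2, the laminin alpha 2 chain of muscle and nerve, had 10.06, 10.24 and 10.32 in V-4084 arrays, against 8.32, 8.39 and 8.30 in vehicle arrays (difference 1.87, SE 0.15, adjusted p = 8.81e-10). ITGB8, an integrin chain that activates latent TGF-beta, rose by 1.10 (SE 0.19) and ITGA11, a collagen receptor chain of fibroblasts, by 1.01 (SE 0.15). Of 26 YAP-TEAD and SRF targets 3 rose and 5 fell. NT5E, the surface enzyme CD73 that makes adenosine, had 8.62, 8.70 and 8.77 in V-4084 arrays, against 10.61, 10.66 and 10.78 in vehicle arrays (difference -1.99, SE 0.14, adjusted p = 7.06e-11). CCN1 and CCN2, related matricellular proteins, were called in opposite directions, at -0.56 and 0.71.

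Genes of the IL6 family fell more often than they rose. Of 17 members 5 fell and 2 rose, 1 without V-4084 repeat 2. LIF, leukemia inhibitory factor, had 5.93, 5.94 and 5.84 in V-4084 arrays, against 7.83, 7.16 and 7.44 in vehicle arrays, at least 2.12-fold lower. IL6 had 5.42, 5.53 and 5.001 in V-4084 arrays, against 6.81, 6.52 and 6.84 in vehicle arrays, at least 1.26-fold lower. The V-4084 arrays of both lay under the floor. OSMR, the oncostatin M receptor, had 8.09, 7.98 and 8.21 in V-4084 arrays, against 9.07, 9.17 and 9.30 in vehicle arrays (difference -1.09, SE 0.16, adjusted p = 2.65e-05). PIM1, a kinase induced by STAT signals, rose by 0.56 (SE 0.11). Among 30 chemokines and inflammatory cytokines 5 fell and 3 rose. CXCL8 and CCL2, which attract neutrophils and monocytes, fell, at -1.57 (SE 0.24) and -0.86 (SE 0.13), at least 2.12-fold for CXCL8. VCAM1, an adhesion molecule, rose by 1.24 (SE 0.18), at least 1.5-fold, and CX3CL1, a membrane-bound chemokine, by 0.83 (SE 0.13).

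Genes of antigen presentation were lower in part. Of 11 genes of MHC class I presentation 5 fell, PSMB8, an immunoproteasome subunit, with 6.11, 6.34 and 6.06 in V-4084 arrays, against 7.03, 6.56 and 7.15 in vehicle arrays (at least 1.43-fold lower) and NLRC5, the factor that drives these genes, with 7.52, 7.49 and 7.35 in V-4084 arrays, against 8.31, 8.01 and 7.95 in vehicle arrays. B2M, the light chain of class I, had 10.84, 10.81 and 10.80 in V-4084 arrays, against 10.94, 11.09 and 10.84 in vehicle arrays and was not called. Of 27 interferon-stimulated genes 3 rose and 2 fell. The higher count ranged from 0 without vehicle repeat 3 or V-4084 repeat 3 to 6 without V-4084 repeat 1, and was 1 without vehicle repeat 2 or V-4084 repeat 2. The lower count was 4 without vehicle repeat 2 and 1 without V-4084 repeat 1.

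Of the 46 pathway lists sterol synthesis had the largest share of calls, closely followed by mitotic genes with 37 of 44. Under other settings 16 to 18 of the 20 sterol genes and 28 to 43 of the 44 mitotic genes were lower. The order of these lists is thus not settled. Of 20 cholesterol synthesis and uptake genes 17 fell and none rose, with a median of -0.96. DHCR7, the last reductase of the pathway, had 7.12, 7.77 and 7.77 in V-4084 arrays, against 9.65, 9.30 and 9.40 in vehicle arrays (difference -1.90, SE 0.20, adjusted p = 1.56e-07). HMGCS1, the synthase that opens it, had 7.90, 8.09 and 8.19 in V-4084 arrays, against 9.59, 9.73 and 9.94 in vehicle arrays. INSIG1, the sterol sensor that holds SREBP factors back, had 8.04, 8.34 and 8.39 in V-4084 arrays, against 9.52, 9.66 and 9.56 in vehicle arrays. All 3 had no overlap between groups, beside 21.6% of all genes that were lower without overlap. STARD4, a sterol carrier, fell by 1.47 (SE 0.19), SQLE, squalene epoxidase, fell by 1.01 (SE 0.17) and SREBF2, the factor that drives the pathway, fell by 0.92 (SE 0.16). Of 24 fatty acid genes 12 fell and 1 rose. SCD, the main desaturase, had 8.76, 8.97 and 9.02 in V-4084 arrays, against 10.65, 10.94 and 10.70 in vehicle arrays (difference -1.84, SE 0.29, adjusted p = 5.69e-05), and FADS2 and FADS1, desaturases of polyunsaturated fats, fell, at -1.82 (SE 0.17) and -1.28 (SE 0.13). SCD5, a second desaturase, rose, 8.40, 8.35 and 8.52 in V-4084 arrays, against 7.71, 7.54 and 7.61 in vehicle arrays. FASN, fatty acid synthase, fell by 0.59 (SE 0.16), a call that was lost without vehicle repeat 1 (adjusted p = 0.0781), and SREBF1, the factor that drives it, was not called, at -0.32.

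In sterol efflux none fell, and 3 of 13 genes rose. ABCA1, the cholesterol exporter, had 8.57, 7.94 and 8.17 in V-4084 arrays, against 7.04, 7.64 and 7.01 in vehicle arrays (difference 0.995, SE 0.17, adjusted p = 0.000113). MYLIP, the ubiquitin ligase of the LDL receptor, rose by 0.57 (SE 0.12), and ABCG1, a second exporter, was not called, at -0.05. Of 12 ABCA transporters 5 rose. Those besides ABCA1 and the 2 named above were ABCA9, 6.48, 6.27 and 6.70 in V-4084 arrays, against 5.04, 4.83 and 5.08 in vehicle arrays, at least 1.13-fold higher, and ABCA10, with both group means under the floor.

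Genes of hypoxia and glycolysis were lower. Of 31 hypoxia and glycolysis genes 23 fell and none rose, with a median of -0.67. HK2, the inducible hexokinase, had 7.02, 7.22 and 7.23 in V-4084 arrays, against 8.33, 8.57 and 8.69 in vehicle arrays (difference -1.37, SE 0.18, adjusted p = 3.95e-06). SLC2A3, the glucose transporter GLUT3, had 7.46, 7.50 and 7.93 in V-4084 arrays, against 8.87, 9.07 and 9.54 in vehicle arrays. SLC2A1, the transporter GLUT1, had 8.78, 9.01 and 8.86 in V-4084 arrays, against 9.56, 10.15 and 10.06 in vehicle arrays. The transporters' vehicle arrays were more spread than their V-4084 arrays. PFKFB4, a regulator of glycolytic flux, fell by 1.22 (SE 0.17), PDK1, which shuts pyruvate out of mitochondria, fell by 1.10 (SE 0.22), BNIP3, a mitophagy receptor, fell by 1.23 (SE 0.22) and LDHA, lactate dehydrogenase, fell by 0.57 (SE 0.13). HIF1A itself was not called, at -0.30. PDK4, a pyruvate dehydrogenase kinase of fasting, rose, 7.16, 7.07 and 7.27 in V-4084 arrays, against 5.98, 6.06 and 6.29 in vehicle arrays (difference 1.06, SE 0.15, adjusted p = 1.36e-05, at least 1.81-fold). ANGPTL4, a lipase inhibitor, fell by 1.42 (SE 0.32), at least 2.58-fold.

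Amino acid supply genes of the ATF4 group also fell, 11 of 28 with none higher. Without vehicle repeat 3 or V-4084 repeat 1 the number was 6, and without V-4084 repeat 2 it was 7. SLC7A5, the large neutral amino acid transporter, had 7.78, 7.72 and 7.75 in V-4084 arrays, against 9.48, 8.91 and 9.79 in vehicle arrays (difference -1.64, SE 0.17, adjusted p = 1.57e-07). ASNS, asparagine synthetase, had 6.38, 6.49 and 6.68 in V-4084 arrays, against 7.54, 7.42 and 8.28 in vehicle arrays. CHAC1, a glutathione-degrading enzyme, had 6.94, 6.45 and 6.37 in V-4084 arrays, against 8.06, 7.61 and 7.79 in vehicle arrays. Vehicle repeat 3 was the highest array for SLC7A5 and ASNS. SLC7A11, the cystine transporter, fell by 0.99 (SE 0.22), and PHGDH, the first enzyme of serine synthesis, was not called, at -0.37.

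The letters TGATGNAA, as in the element bound by ATF4, were found in the windows of 5 of 10 matched genes of this group that fell, in 0 of 13 others and in 3.67% of all windows. The 2 windows below are those of the named genes ASNS (chr7:97872359-97872658, - strand) and CHAC1 (chr15:40953221-40953520, + strand), 5′ to 3′, with the match in capitals.
ASNS: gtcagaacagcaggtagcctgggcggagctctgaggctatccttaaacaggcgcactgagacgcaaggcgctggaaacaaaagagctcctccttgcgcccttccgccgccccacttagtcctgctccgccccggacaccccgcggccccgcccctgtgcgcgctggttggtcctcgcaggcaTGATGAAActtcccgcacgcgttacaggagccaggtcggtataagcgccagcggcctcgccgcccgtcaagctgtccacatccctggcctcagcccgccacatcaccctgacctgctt
CHAC1: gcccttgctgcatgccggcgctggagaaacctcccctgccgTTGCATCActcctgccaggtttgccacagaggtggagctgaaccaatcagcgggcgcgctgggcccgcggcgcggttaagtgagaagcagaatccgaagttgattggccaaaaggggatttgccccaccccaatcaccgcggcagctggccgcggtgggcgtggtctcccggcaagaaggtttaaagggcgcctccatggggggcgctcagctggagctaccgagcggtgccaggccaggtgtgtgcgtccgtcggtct

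Of 27 ribosome building genes 15 fell and none rose, with a median of -0.56. WDR43, a factor of the small subunit, had 8.14, 8.20 and 8.30 in V-4084 arrays, against 9.03, 9.19 and 9.42 in vehicle arrays. NOP2, a nucleolar RNA methyltransferase, had 7.74, 7.85 and 7.84 in V-4084 arrays, against 8.52, 8.50 and 8.68 in vehicle arrays. RRP9 and POLR1B, a processing factor and a subunit of RNA polymerase I, fell, at -0.71 (SE 0.14) and -0.67 (SE 0.13). The E-box letters CACGTG, which MYC and clock factors can bind, were in 7 of 12 matched windows of members that fell, 2 of 10 others and 7.43% of all. Within the MYC network MXD4, a repressor that competes with MYC, rose by 0.52 (SE 0.11), while MLX, a partner of that network, fell by 0.55 (SE 0.09). IGF2BP3, an RNA-binding protein of fetal and tumour cells, had 7.69, 7.66 and 7.85 in V-4084 arrays, against 8.72, 8.52 and 8.93 in vehicle arrays. ODC1, the rate-limiting enzyme of polyamines and a MYC target, had 9.04, 9.24 and 9.34 in V-4084 arrays, against 10.14, 9.98 and 10.29 in vehicle arrays. Of 20 nucleotide synthesis genes 10 fell and none rose, but the count was 5 without vehicle repeat 3 or V-4084 repeat 1 and 6 without V-4084 repeat 2. CTPS1, CTP synthase, fell by 0.61 (SE 0.14).

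Most genes of cell division were lower. Of 44 mitotic genes 37 fell and none rose, with a median of -0.75. KIF18A, a kinesin of chromosome alignment, had 7.58, 7.86 and 8.02 in V-4084 arrays, against 9.14, 9.17 and 9.21 in vehicle arrays (difference -1.35, SE 0.19, adjusted p = 1.02e-05). CDC20, the activator of the anaphase-promoting complex, had 8.19, 8.21 and 8.29 in V-4084 arrays, against 9.33, 9.12 and 9.23 in vehicle arrays. FOXM1, the transcription factor of late cell cycle genes, had 9.02, 9.11 and 9.12 in V-4084 arrays, against 10.12, 9.86 and 9.90 in vehicle arrays. V-4084 repeat 1 was the lowest array for all 3. CCNB1, cyclin B1, fell by 1.25 (SE 0.26) and CENPE, a kinetochore motor, fell by 1.27 (SE 0.22), while AURKB, a mitotic kinase, was not called, at -0.19. DNA replication moved less, with 7 of 31 lower, 3 without vehicle repeat 1, vehicle repeat 3 or V-4084 repeat 1 and 4 without V-4084 repeat 2. PCNA, the replication clamp, was not called, at -0.20. Of 38 histone genes 10 fell, 3 without vehicle repeat 1 and 4 without V-4084 repeat 1. H4C8, a histone H4 gene, rose by 0.76 (SE 0.17). Histone genes are near-identical copies whose probe sets may share signal, so single members are uncertain.

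At the G1 step 4 of 21 genes fell and 1 rose. CCND1, cyclin D1 and a target of ERK signalling, had 9.35, 9.35 and 9.09 in V-4084 arrays, against 10.42, 10.22 and 10.43 in vehicle arrays (difference -1.09, SE 0.14, adjusted p = 3.95e-06). CDKN1B, the inhibitor p27, had 9.39, 9.39 and 9.40 in V-4084 arrays, against 8.95, 8.81 and 9.03 in vehicle arrays (difference 0.47, SE 0.13, adjusted p = 0.0109). CDKN1A, the inhibitor p21, and CCNE2, cyclin E2, were not called, at -0.23 and -0.29. The number that fell was 1 without vehicle repeat 1 or V-4084 repeat 1 and 2 without vehicle repeat 3 or V-4084 repeat 2, and the call of CDKN1B was lost without vehicle repeat 2. Of 18 p53 targets 2 rose and 3 fell. TP53INP1, a nuclear stress protein, had 9.41, 9.35 and 9.34 in V-4084 arrays, against 7.82, 7.83 and 8.02 in vehicle arrays. SESN1, a sestrin, had 8.20, 8.23 and 8.44 in V-4084 arrays, against 7.29, 7.41 and 7.53 in vehicle arrays. MDM2, the inhibitor of p53, was not called, at -0.14. The 3 lower calls were lost without vehicle repeat 3 or V-4084 repeat 1, and 1 was left without V-4084 repeat 2.

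The promoters of the first 2 mitotic genes are shown for the cell cycle homology region, TTTGAA, searched on both strands. The letters were in 22 of 32 matched windows of members that fell, in 5 of 7 others and in 15.4% of all windows, so members held them often whether called or not. The window of KIF18A lies at chr11:28108107-28108406 on the - strand and that of CDC20 at chr1:43358731-43359030 on the + strand, 5′ to 3′, with matches in capitals.
KIF18A: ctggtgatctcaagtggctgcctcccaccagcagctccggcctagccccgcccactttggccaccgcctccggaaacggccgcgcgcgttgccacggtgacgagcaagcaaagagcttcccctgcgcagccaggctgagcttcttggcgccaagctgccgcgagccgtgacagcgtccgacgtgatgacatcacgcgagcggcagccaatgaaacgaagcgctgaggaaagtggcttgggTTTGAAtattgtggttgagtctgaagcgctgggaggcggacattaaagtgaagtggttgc
CDC20: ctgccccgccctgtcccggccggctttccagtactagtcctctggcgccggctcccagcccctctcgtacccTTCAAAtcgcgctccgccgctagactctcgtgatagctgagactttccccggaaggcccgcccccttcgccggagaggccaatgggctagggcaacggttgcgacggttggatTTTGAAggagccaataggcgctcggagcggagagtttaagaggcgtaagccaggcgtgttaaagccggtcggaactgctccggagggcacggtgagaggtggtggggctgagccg

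Developmental pathways rose in part. Of 13 Hedgehog genes 6 rose and none fell, with a median of 0.34. PTCH1, the Hedgehog receptor and a target of the pathway, had 8.56, 8.68 and 8.70 in V-4084 arrays, against 6.74, 6.84 and 6.83 in vehicle arrays (difference 1.84, SE 0.11, adjusted p = 1.26e-11). GLI1, its transcription factor and also a target, had 8.07, 8.04 and 8.16 in V-4084 arrays, against 7.13, 6.92 and 7.000 in vehicle arrays (difference 1.07, SE 0.15, adjusted p = 9.13e-06). HHIP, a decoy that binds the ligand, was called higher with both group means under the floor, 6.12, 6.24 and 6.27 in V-4084 arrays, against 5.26, 5.24 and 5.01 in vehicle arrays. The rise included pathway targets. GAS1, a ligand co-receptor, had 8.17, 8.11 and 7.94 in V-4084 arrays, against 6.99, 7.37 and 7.06 in vehicle arrays. SMO, the signal transducer, and GLI3 were not called, at 0.16 and -0.20. The letters GACCACCCA, bound by GLI factors, were in the window of 1 of 5 matched genes that rose, PTCH1, in 0 of 6 others and in 0.249% of all windows. That window, at chr9:95509217-95509516 on the - strand, is printed 5′ to 3′ with the match in capitals.
PTCH1: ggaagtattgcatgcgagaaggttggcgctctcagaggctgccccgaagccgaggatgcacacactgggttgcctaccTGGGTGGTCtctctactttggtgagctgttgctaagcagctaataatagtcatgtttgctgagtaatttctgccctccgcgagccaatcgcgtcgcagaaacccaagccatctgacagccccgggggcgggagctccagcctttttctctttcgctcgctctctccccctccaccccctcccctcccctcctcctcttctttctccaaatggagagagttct

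Other motifs were searched in the same way. TCACNCCAC, as in sterol response elements, was in 1 of 15 windows of cholesterol genes that fell, in 0 of 3 others and in 1.15% of all. TGANTCA, bound by AP-1, was in 0 of 7 windows of AP-1 list genes that fell, in 1 of 10 others and in 7.76% of all. ACGTG, the core of hypoxia elements and part of the E-box letters, was in 8 of 20 windows of glycolysis genes that fell, in 3 of 7 others and in 21.6% of all. GTGGGAA, bound by the Notch factor RBPJ, was in 1 of 3 windows of Notch genes that rose, that of HEY2, in 4 of 13 others and in 6.28% of all. CACGTG was in 4 of 10 windows of called clock genes, in 1 of 9 others and in 7.43% of all.

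Of 20 Notch genes 4 rose and none fell. HEY1, a Notch target repressor, had 8.56, 8.67 and 8.73 in V-4084 arrays, against 6.82, 6.95 and 6.98 in vehicle arrays (difference 1.74, SE 0.11, adjusted p = 2.72e-11). HEY2, a relative, rose by 0.69 (SE 0.13) and the ligand gene JAG1 by 0.57 (SE 0.11). Of 33 Wnt genes 8 rose and 3 fell. WNT7B, a Wnt ligand, had 7.47, 7.29 and 7.24 in V-4084 arrays, against 10.01, 9.40 and 9.52 in vehicle arrays (difference -2.31, SE 0.18, adjusted p = 4.07e-10). WNT5A, a ligand of the noncanonical branch, had 8.30, 8.25 and 8.29 in V-4084 arrays, against 9.18, 9.29 and 9.07 in vehicle arrays. FRZB, the secreted antagonist named above, had 8.16, 8.47 and 8.52 in V-4084 arrays, against 5.95, 6.03 and 6.22 in vehicle arrays, with its vehicle arrays under the floor. DKK2, another secreted Wnt modulator, rose by 1.07 (SE 0.14). AXIN2, a target of the canonical branch, rose by 0.53 (SE 0.10), at least 1.36-fold, and LEF1, another, was not called, at 0.07.

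In the TGF-beta group 4 of 29 genes rose and 3 fell, but the 3 ligands differed in direction. TGFB2 had 9.77, 9.83 and 9.88 in V-4084 arrays, against 7.79, 8.54 and 8.14 in vehicle arrays (difference 1.67, SE 0.23, adjusted p = 5.95e-06). TGFB3 had 10.57, 10.71 and 10.64 in V-4084 arrays, against 9.91, 9.93 and 9.58 in vehicle arrays. TGFB1 had 8.18, 8.11 and 7.93 in V-4084 arrays, against 8.996, 8.60 and 8.55 in vehicle arrays (difference -0.64, SE 0.14, adjusted p = 0.00207). Thus TGFB2 and TGFB3 rose while TGFB1 fell. SMAD7 and TGFBI, targets of the pathway, were not called, at -0.18 and 0.24. Among 12 insulin-like growth factor binding genes 4 rose and 2 fell. IGFBP4 had 10.12, 10.24 and 10.13 in V-4084 arrays, against 9.08, 9.10 and 8.72 in vehicle arrays. PAPPA, the protease that cleaves it, had 6.69, 6.64 and 6.55 in V-4084 arrays, against 8.20, 8.04 and 8.13 in vehicle arrays (difference -1.49, SE 0.17, adjusted p = 3.34e-07). IGFBP5 rose by 1.10 (SE 0.15).

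The largest share of increases among the 46 pathway lists was in the extracellular matrix. Of 16 small leucine-rich proteoglycans 10 rose and none fell, with a median of 0.77, and 3 of the 16 had both means below the floor. DCN, which binds collagen fibrils, had 9.94, 10.01 and 10.12 in V-4084 arrays, against 7.86, 8.35 and 7.95 in vehicle arrays. LUM, which also binds them, had 10.07, 10.21 and 10.09 in V-4084 arrays, against 8.47, 8.79 and 7.85 in vehicle arrays. BGN, a proteoglycan of bright level, had 11.70, 11.77 and 11.61 in V-4084 arrays, against 10.37, 10.44 and 9.82 in vehicle arrays (difference 1.48, SE 0.16, adjusted p = 1.57e-07). ECM2, a related matrix protein, rose by 1.25 (SE 0.16), at least 1.75-fold, and FMOD and PRELP were not called, at 0.16 and 0.18. Of 39 collagen genes 13 rose and none fell. COL3A1, a fibrillar collagen, had 11.50, 11.58 and 11.51 in V-4084 arrays, against 10.09, 10.57 and 9.90 in vehicle arrays. COL1A1, a chain of type I collagen, had 11.82, 11.95 and 11.90 in V-4084 arrays, against 11.05, 11.30 and 10.69 in vehicle arrays. COL12A1, a collagen of fibril surfaces, had 9.53, 9.89 and 9.92 in V-4084 arrays, against 8.21, 9.11 and 8.22 in vehicle arrays. In all 3 the highest vehicle array was repeat 2. COL6A3 was bright and not called, at 0.21. The fibroblast marker list given above shares members with these lists, DCN, COL1A1 and COL3A1 among them. Its means, 9.04 to 9.11 with V-4084 and 8.16 to 8.50 with vehicle, are thus no separate observation. The part of fibroblast markers in the result was not tested.

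These matrix genes were also read on mouse arrays of the same repeat numbers, where 3.72% of 19938 genes were called, 2.49% higher and 1.22% lower. Of 27 genes of the fibroblast and proteoglycan lists found on both platforms, 2 were called on mouse arrays, Fbln1 and Podn, and neither was called on human arrays. Mouse Aspn was 8.08, 8.82 and 8.69 in V-4084 tumours, against 7.90, 10.05 and 7.47 in vehicle tumours (difference 0.06, SE 0.41, adjusted p = 0.976), with the highest vehicle array again repeat 2. Mouse Dcn was 9.81, 10.73 and 10.66 in V-4084 tumours, against 9.31, 10.40 and 8.61 in vehicle tumours (difference 0.96, SE 0.36, adjusted p = 0.166). Human ASPN and DCN rose by 2.71 (SE 0.27) and 1.97 (SE 0.15). The order of the 3 vehicle repeats, 2 then 1 then 3, was the same for human ASPN and mouse Aspn. Both platforms also shared that order for OGN, LUM, BGN, COL1A1 and COL3A1. For DCN the order differed, 2 then 3 then 1 on human arrays and 2 then 1 then 3 on mouse arrays. It differed between the platforms for EPYC and PDGFRA too.

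Other lists gave single genes of size. In the aryl hydrocarbon receptor list of 8 genes CYP1B1 was the 1 gene higher, and TIPARP, an enzyme induced by that receptor, fell by 0.75 (SE 0.18). Of 19 circadian clock genes 5 rose and 5 fell, and the number that rose was 2 without vehicle repeat 1 and 3 without V-4084 repeat 1. BHLHE40, a repressor of the clock, had 8.34, 8.41 and 8.30 in V-4084 arrays, against 9.64, 9.36 and 9.58 in vehicle arrays (difference -1.18, SE 0.15, adjusted p = 2.44e-06). BMAL1, the activator of the clock, had 7.99, 8.08 and 7.997 in V-4084 arrays, against 7.10, 7.42 and 7.51 in vehicle arrays (difference 0.68, SE 0.15, adjusted p = 0.00164). PER3 fell by 0.67 (SE 0.12) and PER2 fell by 0.49 (SE 0.10). Of 27 semaphorin, netrin and slit genes 5 rose and 3 fell. SEMA3A, an axon-repelling ligand, had 9.47, 9.87 and 10.03 in V-4084 arrays, against 8.65, 8.78 and 8.76 in vehicle arrays. ROBO1, a slit receptor, had 10.77, 10.82 and 10.84 in V-4084 arrays, against 9.70, 9.99 and 9.74 in vehicle arrays. SEMA7A, a membrane-anchored semaphorin, fell by 0.74 (SE 0.14). Of 20 fatty acid oxidation genes 1 rose and 3 fell, with 1 lower without vehicle repeat 1 or 3 or V-4084 repeat 1 or 2 and 2 higher without vehicle repeat 1. Of 28 lysosome and autophagy genes 3 rose and 1 fell, with 2 lower without vehicle repeat 1 and 0 without vehicle repeat 3 or V-4084 repeat 1. Of 12 polyamine genes 2 fell, 1 without vehicle repeat 3 or V-4084 repeat 1 or 2.

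Genes that mark glioblastoma subtypes were also read. Of 24 mesenchymal subtype genes 7 fell and none rose (1 without vehicle repeat 2), CD44, PLAUR and BHLHE40 among them, and MVP, the major vault protein, fell by 0.70 (SE 0.13). CHI3L1 and CEBPB, often used to mark that subtype, were not called, at 0.28 and -0.12. Of 24 proneural and stem genes 3 rose and 1 fell. SOX4, a neural precursor factor, had 7.36, 7.80 and 7.37 in V-4084 arrays, against 6.26, 6.86 and 6.42 in vehicle arrays (difference 0.998, SE 0.20, adjusted p = 0.00081). TCF4, a helix-loop-helix factor of neural cells, rose by 0.68 (SE 0.10) and SOX9 fell, 8.55, 8.53 and 8.40 in V-4084 arrays, against 9.40, 9.05 and 9.22 in vehicle arrays. Of 18 angiogenic genes 6 fell and 2 rose, 1 without vehicle repeat 1 or V-4084 repeat 1. APLN, the peptide apelin, had 6.64, 6.76 and 6.31 in V-4084 arrays, against 7.37, 7.58 and 7.54 in vehicle arrays, and VEGFC fell by 0.60 (SE 0.14), while THBS1, an inhibitor of angiogenesis, had 11.24, 11.44 and 11.35 in V-4084 arrays, against 10.36, 10.62 and 10.38 in vehicle arrays (difference 0.89, SE 0.21, adjusted p = 0.00398).

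The U87M2 response was set against the other lines in the same fit. For each gene the U87M2 difference minus the mean difference of SF295, U118, DBM2 and U251M2 was tested, and 1617 genes were called (8.78%), 709 positive (3.85%) and 908 negative (4.93%). Of the 2760 genes called in U87M2, 1533 were among them. Both contrasts use the same U87M2 arrays, so this overlap is a description. Without the 3 narrow-range arrays of other lines 3119 genes were called here, and 1389 in the test against U118 described below. The largest fitted positive differences were in ASPN (2.52), ABCA6 (2.51), CYP1B1 (2.48), OGN (2.41), ABCA8 (2.37) and SCN7A (2.31). The largest negative ones were in SULT1B1 (-3.12), STC1 (-2.50), HMGA1 (-2.43), WNT7B (-2.37), EPHA2 (-2.36) and SERPINB7 (-2.35). In ASPN, ABCA6, OGN, ABCA8 and SCN7A the vehicle mean of U87M2 was under the floor, and in SULT1B1 and SERPINB7 the V-4084 mean was, so their order is not settled. For CYP1B1 the mean of the other lines was 0.18, and for EPHA2 it was -0.10. MET differed from that mean by -0.88 (SE 0.18, adjusted p = 0.00172).

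**Figure D5:**
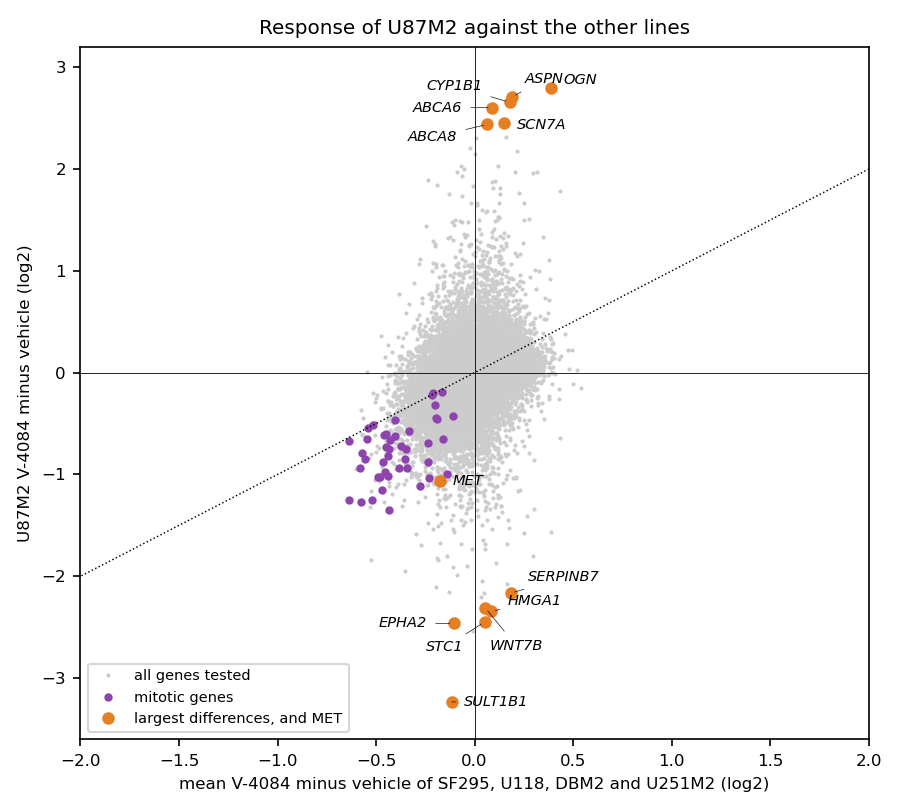
U87M2 V-4084 minus vehicle (log2, vertical axis) against the mean of the same difference in SF295, U118, DBM2 and U251M2 (horizontal axis). Grey points are all 18417 genes, orange points MET and the 12 genes with the largest differences between U87M2 and the other lines, purple points 44 mitotic genes, and the dotted line marks equal differences. The 12 genes lie far from the dotted line, with horizontal values near 0, whereas most mitotic genes lie below 0 on both axes.

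Lists differed in how far this held. Of 20 cholesterol genes 15 differed from the other lines, of 31 glycolysis genes 19, of 31 FOXO genes 17, of 20 ERK feedback genes 11 and of 13 Hedgehog genes 6. Of 44 mitotic genes 7 differed and of 31 DNA replication genes 1, although 37 of the mitotic and 7 of the replication genes were called in U87M2. Against U118 alone 5 of the 20 cholesterol genes differed, 7 of the 31 glycolysis genes, 11 of the 31 FOXO genes, 7 of the 20 ERK feedback genes, 2 of the 13 Hedgehog genes and 1 of the 44 mitotic genes. The cholesterol median was -0.96 in U87M2 and -0.45 in U118, where 7 of the 20 genes were called. The glycolysis median was -0.67 in U87M2 and -0.15 in U118. The mitotic median was -0.75 in U87M2 and -0.74 in U118, and 22 of the 44 genes were called in U118, where 0.755% of all genes were called. That median was -0.29 in SF295, -0.31 in DBM2 and -0.22 in U251M2, and no gene of any list was called in those lines. KIF18A and MKI67, the proliferation marker Ki-67, differed by -0.90 and -0.81 in U118. The U118 differences were also tested against those of U87M2 directly, since earlier results of these data had shown high HGF in U118. In that test 607 genes were called (3.3%), 301 positive (1.63%) and 306 negative (1.66%), and 584 of the 607 were also called in U87M2. The same U87M2 arrays enter both, so this overlap too is a description. MET differed by -0.61 in U118 without a call, and the test of U87M2 against U118 gave -0.45 (adjusted p = 0.452), which does not show that the lines respond alike. FOSL1, DUSP6 and BCL2L11 differed by -0.08, 0.06 and -0.29 in U118, and the test of the difference gave -1.99 (adjusted p = 4.5e-08), -1.37 (adjusted p = 0.000544) and 2.19 (adjusted p = 9.4e-07).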

How the data were processed

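The deposited tables hold log2 probe-set intensities of Affymetrix gene arrays for human and mouse, 1 column per sample, and the human table has 33297 probe sets. RMA and Partek are named in the submitters' processing notes without versions, and no source used here names an annotation version. Per the labels' protocols 200 ng of total RNA was labelled for each array. Probe sets were named from the platform annotation, of which 19460 had 1 gene symbol, 1754 several and 12083 none, and the probe set with the highest mean stood for each of 18417 genes. limma 3.58.1 in R 4.3.3 fitted 10 group means to the 28 human arrays, which left 18 residual degrees of freedom, and p-values were adjusted over all genes by the Benjamini-Hochberg method at 0.05. The same was done for 19938 genes of the mouse arrays. The 6 arrays limit the precision, and the scale was kept as deposited, with no added filter. Named genes were HGF, MET, the 12 largest increases and decreases without overlap, preset key members of each list with its 4 largest calls in each direction, and the 6 largest differences from other lines in each direction. NR4A1 was added after its values were seen. The members and lists were chosen with earlier results of these data known. Alternatives covered normalization, probe-set choice, dim genes, array weights, a replicate block and leaving out arrays.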

Additional observations from a re-analysis of the deposited data

Results flagged for a closer look

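The tests of the U87M2 difference against other lines picked out 2 counts and 13 genes. Against the mean of SF295, U118, DBM2 and U251M2, 1617 genes differed, and against U118 alone 607 did. On the positive side the matrix genes ASPN and OGN stood at 2.52 and 2.41. The lipid transporter genes ABCA6 and ABCA8 stood at 2.51 and 2.37, the cytochrome gene CYP1B1 at 2.48 and the sodium channel gene SCN7A at 2.31. On the negative side SULT1B1 stood at -3.12 and the hormone gene STC1 at -2.50. The chromatin gene HMGA1 had -2.43, the ligand gene WNT7B -2.37, the receptor gene EPHA2 -2.36 and the serpin gene SERPINB7 -2.35. MET itself had -0.88. Each value is the U87M2 difference minus the mean difference of the other lines on the log2 scale. Groups of 3 arrays were not searched for a single outlying array here.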

How the results depend on the processing

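The 3 arrays of a group and their unknown separation limit these results, and dim genes carry bounds only. The U87M2 calls numbered 4286 (1565 higher, 2721 lower) with U87M2 arrays alone, 6779 (2909, 3870) with array weights and 4816 (1795, 3021) without the 3 narrow-range arrays. Leaving out 1 array gave 1750 to 2507 calls, 696 to 883 higher and 1054 to 1624 lower. Of the 2760 calls 1443 (52.3%) were kept in all 6 and 97 (3.51%) in none, and 74.5% were kept with quantile normalization. Against the other lines the calls numbered 3473 (1428 positive, 2045 negative) with array weights and 3119 (1203, 1916) without the narrow-range arrays, and 1145 to 1551 (501 to 670, 607 to 881) with 1 U87M2 array left out. Against U118 they numbered 1367 (658, 709) with those 2 lines alone, 3452 (1593, 1859) with array weights, 1389 (660, 729) without the narrow-range arrays and 448 to 626 (221 to 309, 214 to 317) with 1 array left out. No shared call of the U87M2 difference changed sign, which refits of nearly the same arrays could hardly have shown. The causes of these moves were not tested.

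The replicate block gave 2140 calls in U87M2, 1215 against the other lines and 409 (196 negative) against U118. Deviations of same-numbered V-4084 and vehicle arrays from their group means correlated at 0.220, 0.0115 and 0.318. Those of different-numbered arrays correlated at -0.300 to 0.150. Whether same-numbered arrays were paired was not tested.

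Among uncalled genes near 0, signs turned with quantile normalization for HGF (0.0074, and 0.044 against the other lines), NES (0.080) and PTPRC (-0.021), with array weights for FOXO1 (-0.067), NES (0.010) and SOX2 (0.013), and without the narrow-range arrays for HGF against the other lines (0.039). With 1 array left out EGFR ranged from -0.0073 to 0.076, NES from -0.23 to 0.078 and PTPRC from -0.027 to 0.12. With quantile normalization the calls of FASN (adjusted p = 0.0537) and NR4A1 (0.111) were lost, and with the replicate block that of NR4A1 (0.077).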
